A study of Mus musculus with 2 samples.

Results

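Interleukins are secreted signals that pass between immune cells and between immune and tissue cells, and most act through receptor chains that pair in a family-specific way. Chains of the gp130, common gamma chain, IL-12 and IL-10 families signal through JAK kinases and STAT factors, while the IL-17 receptors use adaptor proteins that lead to NF-kB. In the retina these signals are studied mainly in microglia, Muller glia and the pigment epithelium, and IL-34, a ligand of the CSF1 receptor, is known in mouse for supporting microglia. The genes described here are the interleukins and interleukin receptors outside the IL-33 family. They were chosen by name, as every gene of a non-control spot whose symbol begins with Il and a digit, after removal of 10 genes of the IL-33, IL-1 receptor and IL-18 receptor group. This gave 72 genes of the 29608 gene names on the array.

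The RNA came from 661W, a single mouse line from a retinal tumour of a transgenic animal, used as a photoreceptor model. The choline-deficient cells were kept for 3 days in DMEM/F12 lacking choline, and the choline-sufficient cells for 3 days in the same medium with choline, which the labels give as 8.98 g/L, a figure that could not be checked here. Both groups were the same line in medium with fetal bovine serum, and the serum's own choline is not stated in the labels. Each group is represented by 1 single-colour array, and the design text speaks of RNA pooled from 4 dishes without saying how they were divided. There is therefore no replicate check on any difference, no p-value is given, and the position on the slide and the medium cannot be told apart. In such bulk RNA, fewer cells of a type and less RNA per cell cannot be told apart either.

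Levels below are percentages of the array's own 75th percentile of processed signal, which was 1609 scanner units on the choline-deficient and 1280 on the choline-sufficient array. A gene was counted as measured when at least 1 of its probes was well above background on both arrays by the scanner software's call, which held for 19818 genes. Each difference is the log2 level on the choline-deficient array less that on the choline-sufficient array, and the number after ± is the scanner software's error of the array reading, not the variation between cultures. A level of a gene was not set against that of another gene, since probes differ in brightness. Of 15 rod and cone photoreceptor markers 6 were measured on both arrays, 3 were above background on 1 array only and 6 on neither, among them the defining genes Crx, Nrl, Rcvrn, Opn1sw and Cngb3. The cone transducin subunit gene Gnat2 was at 22.7% on the choline-deficient and 15.4% on the choline-sufficient array. Gngt2, another such gene, was at 15.8% and 9.57%, Pde6h at 0.64% and 0.351% and the cone opsin gene Opn1mw at 1.23% and 1%. The markers Arr3, at 1.14% and 1.52%, and Gnb3, at 0.757% and 0.782%, went the other way. Cnga3 and Prph2 were above background on the choline-deficient array only. Pde6c, at 0.248% and 0.771%, was above it on the choline-sufficient array only. Summed marker levels below are over the markers measured on both arrays. The summed photoreceptor level was 42.3% on the choline-deficient and 28.6% on the choline-sufficient array. Most of both sums came from Gnat2 and Gngt2. Of 23 immune cell markers 13 were measured and 1, Aif1, was at least 2-fold apart (5.08% and 2.09%). The summed level of the immune markers was 75.4% on the choline-deficient and 66.6% on the choline-sufficient array. Ptprc, which marks all leukocytes, was at 0.514% and 0.619%, and Tyrobp, Cd3g, Cd8a, Ms4a1, Itgax, Kit, Fcer1a, Cpa3, Ncr1 and Klrb1c were well above background on neither array. Fibroblast markers differed more widely. Of 8 such markers 7 were measured, 5 were 2-fold or more higher and 0 lower, with a summed level of 7710% on the choline-deficient and 907% on the choline-sufficient array. Within these sums Col1a2 alone was at 6230% of the 75th percentile on the choline-deficient and 731% on the choline-sufficient array. Of 9 Muller glia and astrocyte markers 6 were measured and 3, Slc1a3, Sox9 and Vim, were 2-fold higher (summed levels 3430% and 1630%). Within these sums Vim alone was at 3160% of the 75th percentile on the choline-deficient and 1510% on the choline-sufficient array. Gfap, Glul and Aqp4 were under 1.5-fold apart, Rlbp1 was above background on the choline-deficient array only, and Kcnj10 and Sox2 on neither. Of 6 endothelial markers 3 were measured and 0 were 2-fold apart (13.9% and 20.3%). The part of these markers' cells in the interleukin differences was not tested.

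Among the 72 genes, 40 were measured on both arrays, 2 were above background on the choline-deficient array only, 2 on the choline-sufficient array only and 28 on neither. Of all gene names on the array 3.35% were above background on the choline-deficient array only, 1.21% on the choline-sufficient array only and 28.5% on neither. In the choline-deficient cells 8 of the 40 measured genes had a level 2-fold or more above that of choline-sufficient cells, and 0 had one 2-fold or more below. These counts leave out genes above background on 1 array only. Of these, Il23a was at least 4-fold lower, and Il17f and Il9r at least 1.83-fold and 1.32-fold higher. Il10ra was 5.15-fold lower by the ratio of its readings, which is not a bound. The 8 were the ligands Il34, Il16 and Il7, the receptor chains Il2rb, Il17rd, Il23r and Il27ra, and the enzyme gene Il4i1. They made up 20% of the measured interleukin genes. Across the 19818 genes the share past 2-fold was 7.67% upward and 3.88% downward. At 1.5-fold the counts were 12 higher and 4 lower, or 30% and 10%, against 14.8% and 14.1% of all measured genes. The median difference of the 40 genes was 0.14 and that of all measured genes -0.096. After normexp background correction, which adds 50 units to every signal, these medians were -0.129 and -0.196. With no filter on dim probes, which takes in all 72 interleukin genes, they were -0.222 and -0.184. The interleukin median was thus negative after normexp and with genes not above background taken in, and the cause of the change under normexp was not tested. With the 4 other scalings it stayed positive, but was only 0.02 with median scaling. The upper quartile lay at 0.68 for the interleukin genes and 0.30 for all genes, and the lower quartiles were -0.28 and -0.40. A total of 21 differences were positive and 19 negative, or 52.5% positive, against 42.6% of all measured genes. Those larger than 2 scanner errors numbered 21, and the share of all genes past that mark was not counted. Receptor chains accounted for 21 of the 40 genes, with a median of 0.44, 4 at least 2-fold higher and 0 lower. Ligands accounted for 16, with a median of -0.06, 3 higher and 0 lower.

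**Figure D1:**
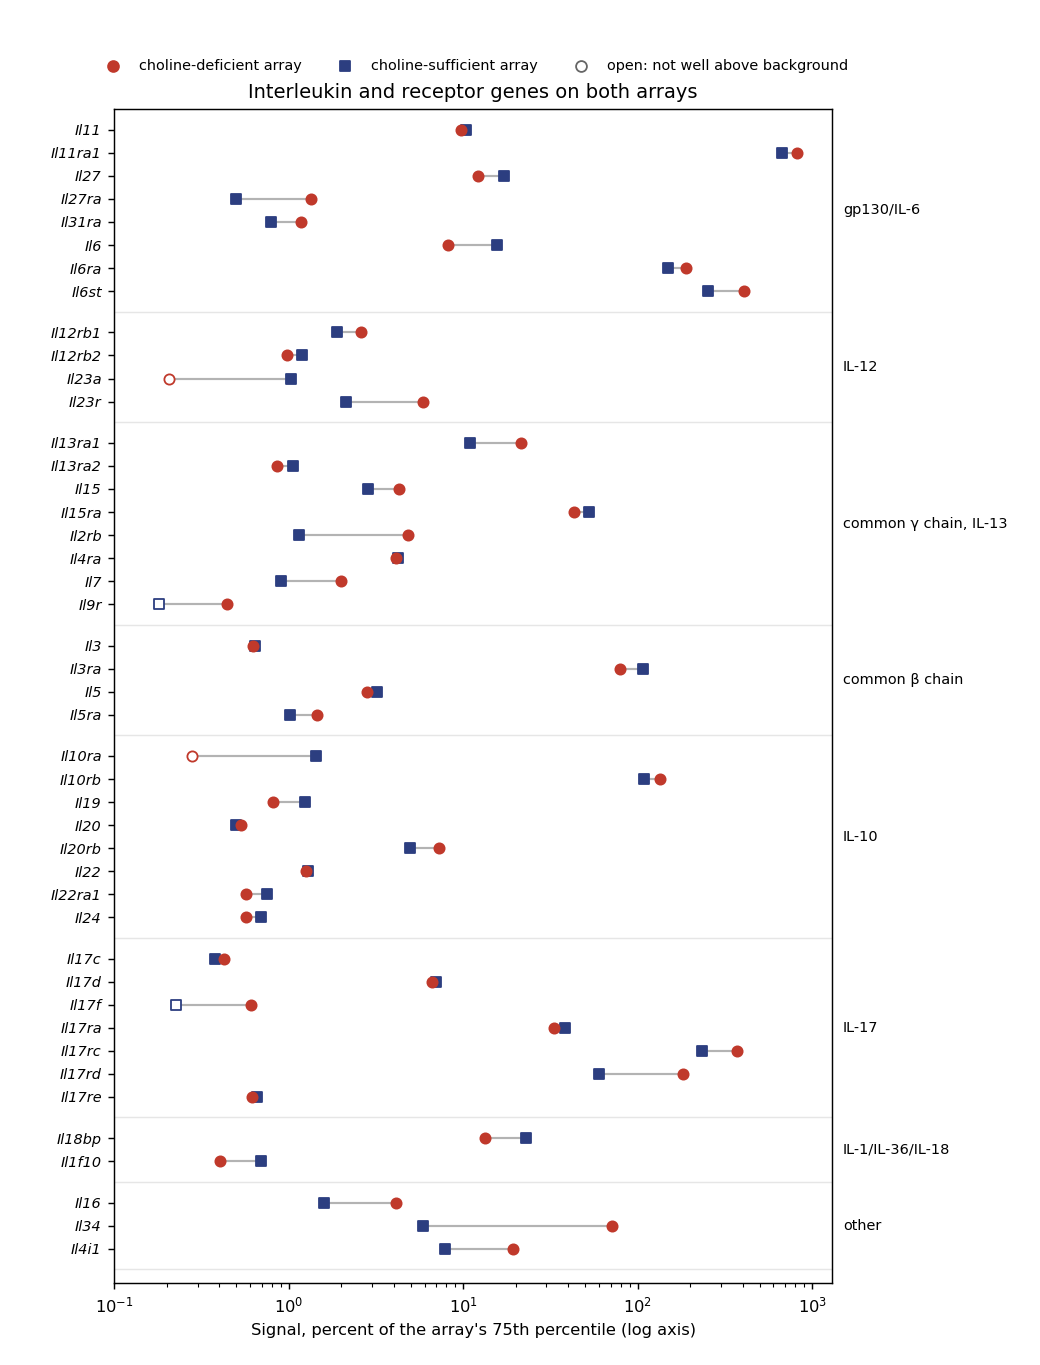
Signal of the 44 interleukin and receptor genes that were well above background on at least 1 array, as a percentage of the array's 75th percentile on a log axis, with a red circle for the choline-deficient and a blue square for the choline-sufficient array. Open symbols were not well above background. Il34 has the longest line, with 71.1% on the choline-deficient and 5.87% on the choline-sufficient array, while most lines are short.

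**Figure D2:**
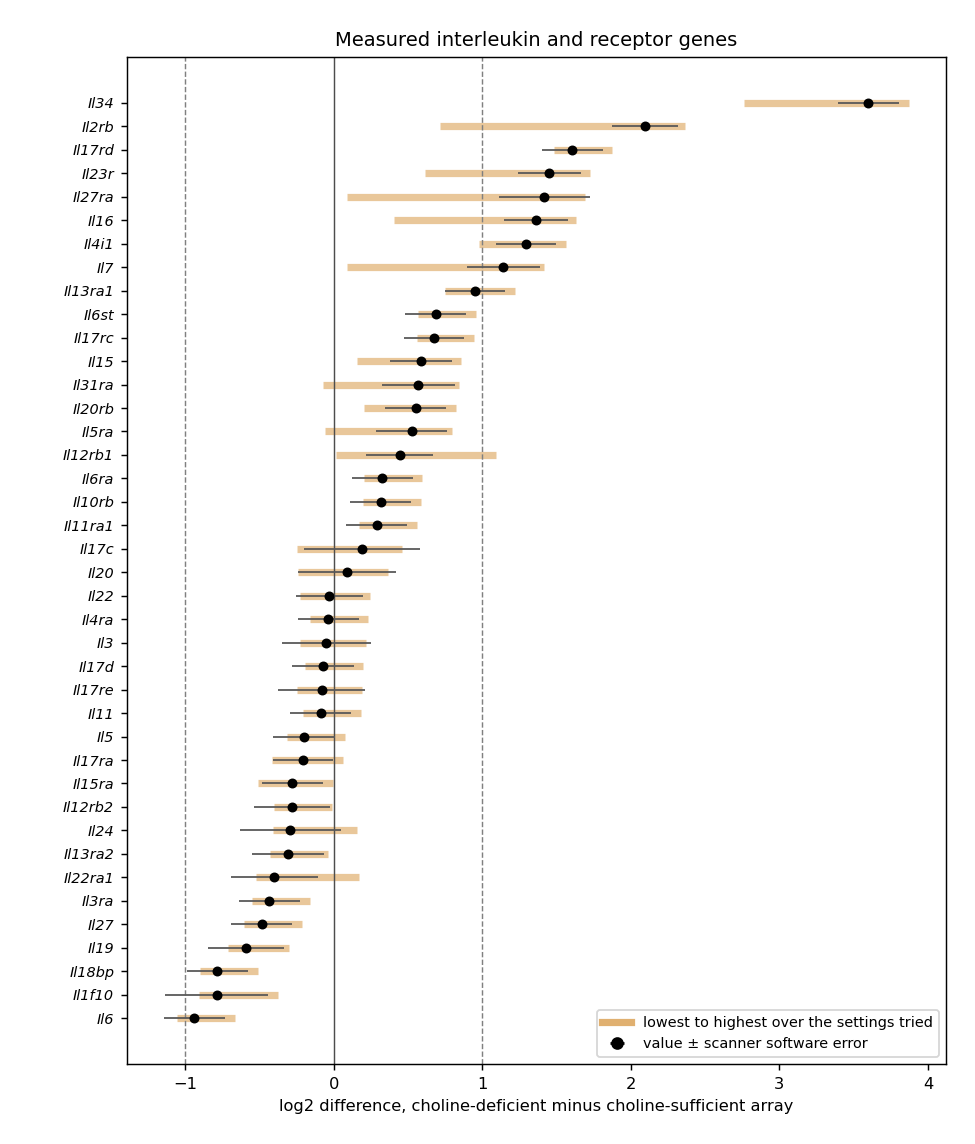
Log2 difference of each of the 40 measured genes, choline-deficient minus choline-sufficient array, with the scanner software's error as a black bar and the lowest to highest value over all processing settings as a tan bar. Dashed lines mark 2-fold. Il34 is highest at 3.60 and Il6 lowest at -0.94, and the tan bars of Il27ra and Il7 reach almost to 0.

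Il34 encodes a cytokine that binds the CSF1 receptor, as CSF1 does. It had 71.1% of the 75th percentile on the choline-deficient array, against 5.87% on the choline-sufficient array, in scanner units 1140 and 75.2. This is 12.1-fold higher, a log2 difference of 3.60 ± 0.20, and was the largest difference among the 40 measured genes. The difference was between 2.76 and 3.87 over 9 settings, some of which could not change it, and above 2-fold each time. It rests on 1 probe for NM_029646, which lies on chr8:113265835-113265894 on the minus strand of mm9. The genes for proteins that bind IL-34 were less far apart. Csf1r, the receptor on microglia and macrophages, was at 6.82% and 6.56% on the choline-deficient and choline-sufficient arrays, a difference of 0.06 ± 0.235 with probes of both signs. Ptprz1, a receptor phosphatase of glia that also binds IL-34, was at 9.46% and 3.34%, or 2.83-fold higher, and Sdc1, the syndecan that binds it at the cell surface, was at 154% and 83.2%, or 1.85-fold higher. Csf1, Csf1r and, below, Stat3, Tab2 and Elavl1 were named after their values were seen. Csf1, the other ligand of the receptor, was at 115% and 83.1%, a difference of 0.47 ± 0.22.

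The probe bases behind the main results show what was hybridised. The first 30 of the 60 bases of each probe are given 5′ to 3′ as in the array file. Il34 is shown for the largest difference, Il17rd for the gene that was past 2-fold in all 10 settings, Il6 for the largest negative difference, Il2rb because 1 of its 2 probes was above background on the choline-deficient array only, and Il12rb1 because its 2 probes differed in sign. The downstream probe of a pair is the one nearer the transcript's end.
Il34: aagaacgacggggtgcctcctaggatccca
Il17rd: atagcactgtgccatatttttacattggcg
Il6: ctgttacctagccagatggtttcttggaat
Il2rb, the downstream probe: ggattcagttctctttcaatgatctgtgca
Il2rb, the other probe: gtctattctggggtgggtttttctgtgaag
Il12rb1, the downstream probe: agtttccctattagagtattgggcacttaa
Il12rb1, the other probe: tttatccatcattttcgcgtctctgggaag

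In the gp130 family, 8 of 9 genes were measured and their median difference was 0.31. Il6st encodes gp130, the shared signalling chain of IL-6, IL-11, IL-27 and LIF, and was at 409% on the choline-deficient and 254% on the choline-sufficient array. This is 1.61-fold higher, a log2 difference of 0.68 ± 0.20. Il6, the acute-phase cytokine itself, went the other way, with 8.21% on the choline-deficient and 15.7% on the choline-sufficient array. It was 1.92-fold lower (-0.94 ± 0.20), just short of 2-fold, and was 2-fold lower with median scaling (-1.06) and quantile normalization (-1.05). Il6ra, the IL-6 binding chain, was at 188% and 150% on the choline-deficient and choline-sufficient arrays, a difference of 0.33 ± 0.20. Il11 was at 9.68% and 10.3%, a difference of -0.09 ± 0.20, and its receptor gene Il11ra1 was at 820% and 672%, a difference of 0.29 ± 0.20. The signal of Il11ra1 is uncertain in its source, since mouse has a closely related copy, Il11ra2. Il31ra, a chain of the IL-31 receptor, was at 1.17% and 0.792%, with a difference of 0.57 ± 0.245 that was -0.07 after normexp background correction. Il31 was well above background on neither array.

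IL-27 is made of the Il27 and Ebi3 products and acts on a receptor of Il27ra with gp130. Il27ra was at 1.34% on the choline-deficient array, against 0.5% on the choline-sufficient array, 2.67-fold higher with a log2 difference of 1.42 ± 0.305. Both ligand genes were lower on the choline-deficient array. Il27 was at 12.2% and 17.1% on the choline-deficient and choline-sufficient arrays (-0.49 ± 0.20), and Ebi3, a gene outside the interleukin names, at 1.57% and 6.4%, 4.08-fold lower. The Il27ra signal was dim, at 21.5 scanner units on the choline-deficient and 6.4 on the choline-sufficient array, and its difference was 0.09 after normexp background correction, which adds 50 units to every signal. The annotated range of Il27ra also overlaps that of Palm3 in RefSeq.

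The IL-12 family had 3 receptor chains measured on both arrays, 1 of them at least 2-fold higher, and 1 ligand gene above background on the choline-sufficient array only. Il23r, the specific chain of the IL-23 receptor, was at 5.84% on the choline-deficient array and 2.14% on the choline-sufficient array, 2.74-fold higher (1.45 ± 0.21). Il12rb1, its partner chain, gave unlike readings from its 2 probes, which lie on chr8:73345261-73345320 and chr8:73343240-73343299 on the plus strand of mm9. The first read 5.26% on the choline-deficient and 2.47% on the choline-sufficient array, a difference of 1.09, and the second 1.27% and 1.46%, a difference of -0.205. Their mean was 0.44 ± 0.22, so the direction of Il12rb1 depends on the probe. Il12rb2, the chain specific to IL-12, was at 0.977% and 1.19%, with a difference of -0.28 ± 0.26. Il23a, which encodes the specific subunit of IL-23, was at 0.206% on the choline-deficient array, not well above background, and at 1.03% on the choline-sufficient array, well above it. Taken against the dimmest signal that counted as above background on the choline-deficient array, 0.258%, it was at least 4-fold lower. Il12a and Il12b were well above background on neither array.

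In the common gamma chain family, which also shares its receptor chains with IL-13, 8 of 17 genes were above background on at least 1 array. Il2rb, the beta chain shared by the IL-2 and IL-15 receptors, was at 4.85% on the choline-deficient and 1.14% on the choline-sufficient array by its probe on chr15:78309771-78309830, minus strand of mm9. It was 4.27-fold higher (2.10 ± 0.22). Its other probe, on chr15:78311109-78311168, was at 1.18% on the choline-deficient array and not well above background on the choline-sufficient array, at 0.341%. By the ratio of these readings it was 3.45-fold higher, with a scanner error of 0.488 in log2, and this is not a bound. Il7, a growth factor of lymphocytes, was at 1.98% and 0.899% on the choline-deficient and choline-sufficient arrays, 2.21-fold higher (1.14 ± 0.25). Il13ra1, which pairs with Il4ra to bind IL-4 and IL-13, was at 21.3% and 11%, 1.93-fold higher (0.95 ± 0.20). Il15, a relative of IL-2, was at 4.28% and 2.85%, 1.5-fold higher (0.59 ± 0.21). These 4 genes were all higher on the choline-deficient array, while the other 3 measured genes of the family were under 1.5-fold apart.

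Il15ra, the chain that presents IL-15, was at 43.4% on the choline-deficient and 52.7% on the choline-sufficient array, a difference of -0.28 ± 0.20. Il4ra was at 4.12% and 4.23%, with a difference of -0.04 ± 0.21 and probes at -0.23 and 0.15. Il13ra2, a decoy receptor of IL-13, was at 0.854% and 1.06%, a difference of -0.31 ± 0.24. Il9r, a chain of the IL-9 receptor, was above background only on the choline-deficient array, at 0.441% against 0.180%, at least 1.32-fold higher. The gamma chain itself, Il2rg, was well above background on neither array, as were Il2, Il2ra, Il4, Il7r, Il9, Il13, Il21 and Il21r. The gamma chain is part of the receptors of IL-2, IL-4, IL-7, IL-9, IL-15 and IL-21. In the common beta chain family all 4 genes were measured and 0 were 1.5-fold apart. Il3ra was at 79.3% and 107% on the choline-deficient and choline-sufficient arrays (-0.43 ± 0.20), Il5ra at 1.46% and 1.01% (0.525 ± 0.239, and -0.06 after normexp), Il5 at 2.81% and 3.22% (-0.20 ± 0.21) and Il3 at 0.622% and 0.644% (-0.05 ± 0.30).

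In the IL-17 family 6 of 11 genes were measured, and Il17rd was the 1 gene at least 2-fold apart. Il17rd, also called Sef, is known for restraining FGF and ERK signalling as well as for its place among the IL-17 receptors. It was at 183% on the choline-deficient array and 60.1% on the choline-sufficient array, 3.04-fold higher (1.605 ± 0.204), and stayed at least 2-fold higher in all 10 settings, between 1.49 and 1.88. Some of these settings could not change a gene with 1 probe. The Il17rd probe lies on chr14:27920311-27920370, plus strand of mm9. Il17rc, which pairs with Il17ra to bind IL-17A and IL-17F, was at 373% and 234%, 1.6-fold higher (0.68 ± 0.20), with both probes positive. Il17ra was at 33.1% and 38.1% on the choline-deficient and choline-sufficient arrays, a difference of -0.21 ± 0.20, and Il17re, the receptor of IL-17C, at 0.619% and 0.655%, a difference of -0.08 ± 0.295. Among the ligands, Il17d was at 6.61% and 6.96% (-0.07 ± 0.21) and Il17c at 0.427% and 0.375% (0.19 ± 0.39). Il17f was above background only on the choline-deficient array, at 0.609% against 0.225%, at least 1.83-fold higher. Il17a, Il17b, Il25 and Il17rb were well above background on neither array.

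The IL-10 family had 7 of 11 genes measured and 0 at least 2-fold apart. Il10rb, a chain shared by several receptors of this family, was at 134% on the choline-deficient and 108% on the choline-sufficient array, a difference of 0.32 ± 0.20. Il10ra, the chain specific to IL-10, was at 0.279% on the choline-deficient array and 1.43% on the choline-sufficient array, above background only on that array. By the ratio of these readings it was 5.15-fold lower, with a scanner error of 0.395 in log2, and this is not a bound. Il20rb, a chain of the IL-20 and IL-24 receptors, was at 7.22% and 4.93% on the choline-deficient and choline-sufficient arrays (0.55 ± 0.20). Il19 was at 0.814% and 1.23%, 1.51-fold lower (-0.59 ± 0.25). The remaining genes were dim on both arrays. Il22 was at 1.26% and 1.29% (-0.03 ± 0.23), Il22ra1 at 0.567% and 0.749% (-0.40 ± 0.29), Il20 at 0.529% and 0.497% (0.09 ± 0.33) and Il24 at 0.569% and 0.696% (-0.29 ± 0.34, with probes of both signs). Il10, Il20ra and the soluble IL-22 receptor gene Il22ra2 gave no signal well above background on either array.

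Of the IL-1 and IL-36 ligands, the IL-18 inhibitor and the IL1RAP-like genes, 2 of 11 were measured and both were lower on the choline-deficient array. Il18bp, whose product binds and blocks IL-18, was at 13.4% on the choline-deficient and 23.0% on the choline-sufficient array, 1.72-fold lower (-0.78 ± 0.20). Il1f10 was at 0.401% and 0.693%, 1.73-fold lower (-0.79 ± 0.35). Il1a, Il1b, Il1bos, Il1f5, Il1f6, Il1f8, Il1f9, Il1rapl1 and Il1rapl2 were well above background on neither array. Counting all families, 28 of the 72 genes (with Il31, Il10 and others named above) had no reading above background on either array.

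The interleukin-named genes outside these families were all higher on the choline-deficient array. Il16, whose processed product attracts CD4-bearing cells, was at 4.09% on the choline-deficient and 1.59% on the choline-sufficient array, 2.57-fold higher (1.36 ± 0.22). Il4i1, which encodes a secreted amino acid oxidase first known as induced by IL-4, was at 19.3% and 7.87%, 2.45-fold higher (1.29 ± 0.20). The RefSeq range of Il4i1 lies almost wholly within that of Il4i1b, so its probe may read either transcript. Il34 was the third gene of this group. In RefSeq the ranges of Il34, Il7 and Il6 also overlap long non-coding RNA genes, and that of Il16 holds a pseudogene.

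**Figure D3:**
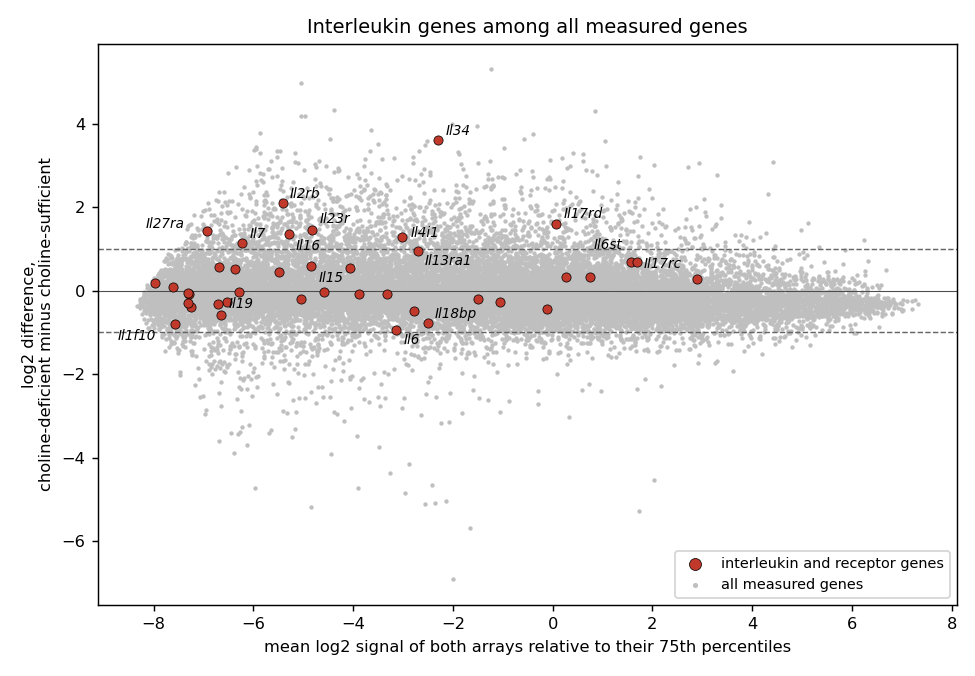
Log2 difference, choline-deficient minus choline-sufficient array, against the mean log2 signal of both arrays relative to their 75th percentiles, for all 19818 measured genes in grey and the 40 interleukin and receptor genes in red. Genes at least 1.5-fold apart are named. Il34 lies in the upper part of the grey cloud, and most other named red points lie at dim signal, where the cloud is wide.

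The background correction changed the count more than the scaling did, and the share of all measured genes at least 2-fold higher fell with it from 7.67% to 3.74%. Normexp background correction with an offset of 50 left 2 of the 8 genes at least 2-fold higher, Il34 (2.76) and Il17rd (1.49), with Il4i1 at 0.98, Il2rb at 0.71, Il23r at 0.62, Il16 at 0.405, Il27ra at 0.09 and Il7 at 0.09. On the choline-sufficient array the processed signals of Il27ra, Il7, Il2rb, Il16 and Il23r were 6.4, 11.5, 14.5, 20.3 and 27.3 scanner units, all under the added 50, while Il4i1 had 310 units on the choline-deficient and 101 on the choline-sufficient array. The part of dim signal in the change was not tested. All 8 genes stayed at least 2-fold higher with median scaling, quantile normalization, cyclic loess and spike-in scaling. The authors' value table is the same 75th percentile scaling, and each of the 8 genes has 1 measured probe. That table and the brightest-probe setting therefore could not change them. Keeping dim probes in could change only Il2rb, which was then at 1.94.

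**Figure D4:**
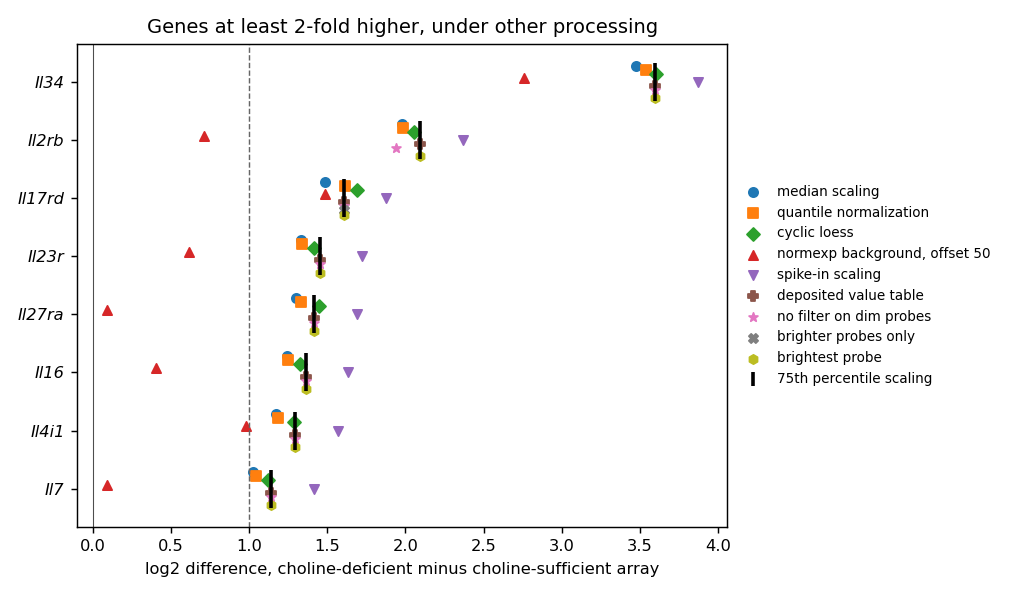
Log2 difference, choline-deficient minus choline-sufficient array, of the 8 genes at least 2-fold higher, under each processing setting, with a black bar for 75th percentile scaling and the dashed line at 2-fold. The red triangles of normexp lie left of the line for 6 genes and right of it for Il34 and Il17rd.

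Genes that carry interleukin signals without an interleukin name were described from 7 lists, of which 80 distinct genes were measured. Past 2-fold, 12 of these were higher and 4 lower, or 15% and 5%, beside 7.67% and 3.88% of all measured genes. Their median difference was -0.02. Of the cytokines and receptors that use gp130, 3 of 9 were higher and 1 lower, and the median was 0.28. Lif was at 1.99% on the choline-deficient and 0.675% on the choline-sufficient array, 2.95-fold higher. Its receptor gene Lifr, at 49.6% and 18.1%, was 2.73-fold higher with its probes between 0.69 and 1.98. Ebi3, given above, was the lower one, and Cntfr was well above background on neither array. Of 10 partner ligands and chains 1 was higher and 1 lower, with a median of 0.05. Csf2rb2, a mouse beta chain for IL-3, was at 0.715% and 2.04%, 2.85-fold lower, with its probes at -2.58 and -0.45. Ifnlr1, the interferon lambda receptor chain that pairs with Il10rb, was at 3.92% and 6.24%, 1.59-fold lower. Csf2, the GM-CSF gene, was above background only on the choline-deficient array, at 0.373% against 0.129%, at least 1.12-fold higher.

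Of 10 measured JAK kinases and STAT factors, which act downstream of these receptors, 0 were at least 2-fold apart, 1 was past 1.5-fold and the median was -0.01. Jak2 was at 184% on the choline-deficient and 284% on the choline-sufficient array, 1.54-fold lower, and Stat3, the main factor of gp130, was at 41.3% and 43.3%, a difference of -0.07 ± 0.20. Stat4 was not above background on either array. Of 16 negative regulators 2 were at least 2-fold higher and 0 lower, with a median of -0.21. Socs1 was at 59.3% and 22.4% on the choline-deficient and choline-sufficient arrays, 2.65-fold higher, and Socs5 at 194% and 79.9%, 2.43-fold higher. Just inside 2-fold, Socs7 was at 496% and 959%, 1.93-fold lower, and Pias2 at 105% and 189%, 1.81-fold lower. Among 15 measured genes known to respond to IL-6 and STAT3, 2 were higher and 2 lower, and the median was -0.17. The NF-kB cofactor gene Bcl3 was at 216% and 78.2%, 2.76-fold higher, and Junb at 21.1% and 10.1%, 2.1-fold higher. The acute-phase genes Saa3, at 3.73% and 93.6%, and Lcn2, at 8% and 70.8%, were 25.1-fold and 8.85-fold lower on the choline-deficient array. At 1.5-fold this list had 5 genes higher and 4 lower.

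Of 13 adaptor and feedback genes of IL-17 signalling 4 were at least 2-fold higher and 0 lower, with a median of 0.004. Tnfaip3, which encodes the NF-kB inhibitor A20, was at 104% on the choline-deficient and 18.4% on the choline-sufficient array, 5.64-fold higher (2.496 ± 0.204). Nfkbiz, encoding the NF-kB cofactor that IL-17 induces, was at 38.2% and 15.2%, 2.52-fold higher. Traf5 was at 104% and 41.6%, 2.5-fold higher, and Zc3h12a, whose nuclease degrades cytokine transcripts, at 4.01% and 1.66%, 2.41-fold higher. The 2 genes past 1.5-fold downward were the adaptor gene Tab2, at 239% and 447%, 1.87-fold lower, and Elavl1, which encodes an RNA-binding protein, at 327% and 539%, 1.65-fold lower. Of 8 measured genes for proteases and other proteins of cytokine processing and receptor shedding 0 were at least 2-fold apart, with a median of 0.03. Casp1, which cleaves IL-1 beta and IL-18, was at 30.7% and 17.4%, 1.76-fold higher, and Casp4 at 23.8% and 39.5%, 1.66-fold lower.

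**Figure D5:**
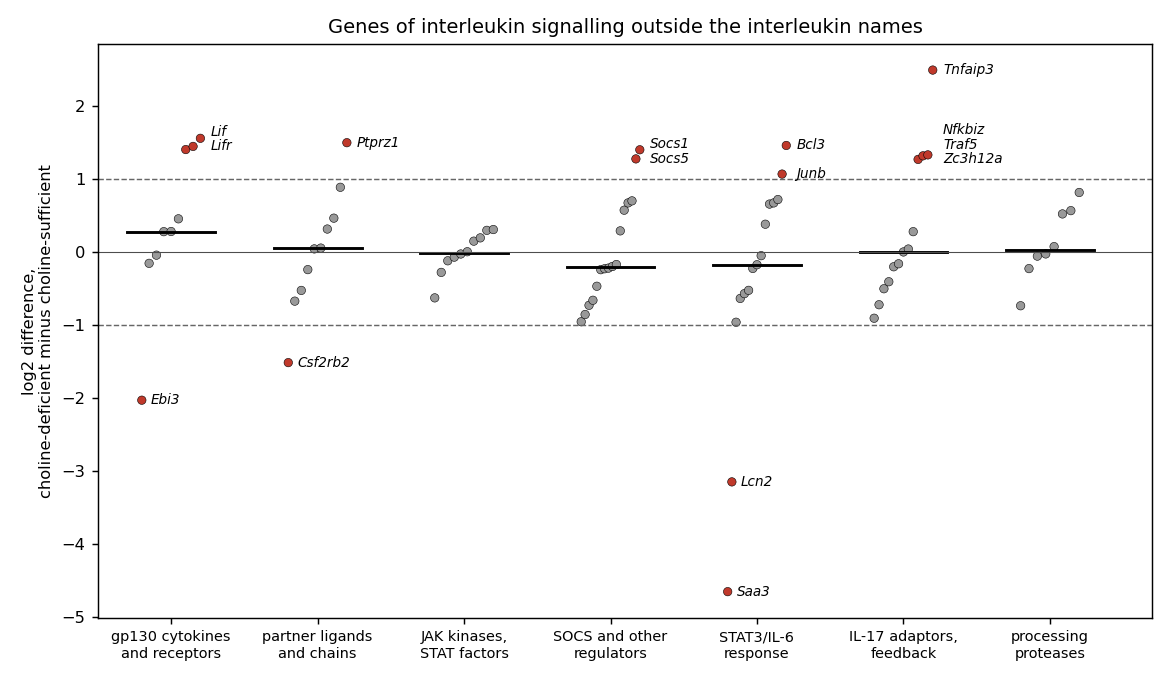
Log2 difference, choline-deficient minus choline-sufficient array, of the measured genes in 7 lists of interleukin signalling, with a black line at each list's median and red points for genes at least 2-fold apart, all but 1 of which are named. The JAK and STAT genes all lie between the dashed 2-fold lines, and Saa3 and Lcn2 lie lowest, at -4.65 and -3.15.

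Promoter sequences of 55 of the 72 genes, and of 4 of the 8 at least 2-fold higher, were found in RefSeq tables of GRCm38.p6. Il34, Il2rb, Il27ra and Il7 had no entry. The 250 bases before each start were searched on both strands for the letters ACGTG (hypoxia response element core), TGANTCA (AP-1), TTCNNNGAA (STAT), TTGCNNAA (C/EBP) and the NF-kB consensus, which can overlap. AP-1 letters were in 13 of the 55 promoters (23.6%) and in 7.82% of those of all genes, C/EBP letters in 10 (18.2%, against 10.8%), STAT letters in 7 (12.7%, against 8.13%), NF-kB letters in 5 (9.09%, against 8.23%) and the hypoxia core in 3 (5.45%, against 18.5%). These shares describe the letters and are not binding sites. The promoters shown are those of the genes at least 2-fold higher with a single entry in the table, and that of Il6, the lowest of the measured genes, with matched letters in capitals. The windows are chr14:27038751-27039000 on the plus strand for Il17rd, chr6:67491856-67492105 on the minus strand for Il23r, chr7:44836038-44836287 on the plus strand for Il4i1 and chr5:30012864-30013113 on the plus strand for Il6.
Il17rd: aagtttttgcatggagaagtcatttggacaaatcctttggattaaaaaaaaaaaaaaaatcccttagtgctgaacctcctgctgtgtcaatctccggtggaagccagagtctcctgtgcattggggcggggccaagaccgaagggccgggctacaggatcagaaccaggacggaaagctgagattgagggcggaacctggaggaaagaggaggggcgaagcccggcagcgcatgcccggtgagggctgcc
Il23r: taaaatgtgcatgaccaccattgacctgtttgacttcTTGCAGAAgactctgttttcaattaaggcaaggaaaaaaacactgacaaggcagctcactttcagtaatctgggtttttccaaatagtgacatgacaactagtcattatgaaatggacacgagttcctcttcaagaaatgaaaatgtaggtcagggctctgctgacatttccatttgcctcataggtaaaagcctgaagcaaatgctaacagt
Il4i1: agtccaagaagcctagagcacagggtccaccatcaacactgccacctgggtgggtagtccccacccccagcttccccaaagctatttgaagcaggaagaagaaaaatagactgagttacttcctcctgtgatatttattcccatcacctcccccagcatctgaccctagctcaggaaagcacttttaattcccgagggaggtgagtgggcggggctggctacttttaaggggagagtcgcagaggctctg
Il6: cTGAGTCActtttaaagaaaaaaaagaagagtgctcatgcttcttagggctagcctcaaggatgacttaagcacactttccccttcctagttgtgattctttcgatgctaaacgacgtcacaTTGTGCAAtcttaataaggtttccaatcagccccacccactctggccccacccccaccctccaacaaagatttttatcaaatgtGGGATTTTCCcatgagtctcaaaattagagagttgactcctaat
The Il6 window held 3 of the motifs, 1 each of AP-1, C/EBP and NF-kB in that order towards the start. The Il23r window held 1, of C/EBP, and those of Il17rd and Il4i1 held 0. Il16, with 3 entries, had AP-1 letters before 1 start, C/EBP and NF-kB letters before another and 0 of the motifs before the other.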

How the data were processed

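The authors deposited Agilent Feature Extraction 12.1.1.1 files of 2 arrays, per the submitters' processing notes. Per the file headers, background was subtracted and spatial trends removed to give each spot's processed intensity, and probe positions are on mm9. The deposited value table is a ratio, the processed signal over the array's 75th percentile. It is linear and uncentred, with medians of 0.0358 (choline-deficient) and 0.0337 (choline-sufficient). Control spots and outlier spots (92 and 86) were left out, spots of a probe averaged as log2, and a gene's value taken as the mean of its measured probes (26463 of 39426 probes). No spot was saturated. With 1 array per group no test was run, and genes were counted at 2-fold. The number of arrays limits the precision. A gene above background on 1 array was set against the higher of its dim signal and the dimmest signal above background. The result is a bound, except where its own dim signal is the higher, when it is the ratio of the readings. The members and lists were chosen with earlier results of these data known. Genes above background on at least 1 array were all named, those of the signalling lists by size, apart from an item that is not reported here. Python 3.11.15, numpy 2.4.6, pandas 2.3.3, R 4.3.3 and limma 3.58.1 were used, and the computation was tested on simulated data. All 72 symbols were in the RefSeq table of GRCm38.p6. Alternatives were 4 scalings, normexp, the deposited table, probe filters, the brightest probe and other thresholds.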

Additional observations from a re-analysis of the deposited data

How the results depend on the processing

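No paired analysis was possible because each group has 1 array. Changing the scaling shifted the all-gene median by -0.119 (median scaling) and 0.271 (spike-in scaling), and normexp shifted it by -0.1, and genes higher on the choline-deficient array made up 66.4% of those 2-fold apart with 75th percentile scaling, 53.7% with median scaling and 85.6% with spike-in scaling. The median of the interleukin genes, 0.14, became -0.129 with normexp, -0.222 with no filter (72 genes) and 0.411 with spike-in scaling. The 8 genes at least 2-fold higher became 2 with normexp, 1 of 9 measured with the brighter probes only (Il17rd), since that filter leaves out 7 of the 8 genes, and 3 at 3-fold. As shares these were 5%, 11.1% and 7.5%, beside 3.74%, 5.8% and 3.06% of all genes. The 0 genes at least 2-fold lower became 1 with median scaling, 1 with quantile normalization (Il6 both times), 5 with no filter and 4 at 1.5-fold. As shares these were 2.5%, 2.5%, 6.94% and 10%, beside 5.49%, 4.16%, 5.88% and 14.1% of all genes. For the signalling lists, the 12 of 80 higher became 7 of 50 with the brighter probes and 1 of 80 at 3-fold. Of all genes 5.8% and 3.06% were higher under these settings. The 4 of 80 lower became 0 of 50 with the brighter probes, 7 of 80 after median scaling and 15 of 80 at 1.5-fold. Of all genes 3.24%, 5.49% and 14.1% were lower under these settings. Requiring 2 scanner errors could not change the interleukin counts, since the highest scanner error among the 40 genes was 0.391 in log2. The cause of the changes under scaling and under normexp was not tested. Of the single interleukin genes' values under alternatives, 274 moved by less than the scanner error and 55 by more. Of the 8 genes at least 2-fold higher, which were picked for the size of their difference, 0 changed sign. Several genes with smaller differences did, such as Il31ra, between -0.07 and 0.84, and Il5ra, between -0.06 and 0.796. Many of the 274 could not move. The deposited table uses the same scaling, and for 32 of the 40 genes the brightest probe is the only measured probe. Signal over background limits the dim genes: 7 of the 40 were under 1% on both arrays.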
